A study of Saccharomyces cerevisiae with 12 samples.

Results

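The small (40S) subunit of the cytosolic ribosome of Saccharomyces cerevisiae carries 32 proteins, and 56 genes encode them. These genes, RPS0A to RPS31, were found by systematic name among the 6465 intervals counted, and all 56 were among the 3677 genes with at least 1 labelled read in every library. A total of 24 proteins came from a pair of paralogs called A and B and 8 from a single gene, 36 of the genes had an intron in their coding sequence, and the genes lay on 14 chromosomes. SLAM-seq was performed on 12 libraries in 4 groups of 3 replicates, A to C. The ET strain (RDY388) received 3-indoleacetic acid (IAA) or its solvent DMSO for 25 min, and so did the control strain (RDY73). Both strains carried OsTIR1 under the GPD1 promoter together with 3xV5-mAID degron tags on BDF1 and BDF2, so IAA marks both bromodomain proteins for destruction in either strain. The ET strain differed by the extraterminal (ET) domain of Bdf1, expressed from the TRP1 locus under the strong glycolytic promoter of GPM1 with the nuclear localization signal of RPL25, and not from the promoter of BDF1. Cultures were grown in YPD and then took up 4-thiouracil (4tU) for 4 min, and S. pombe cells were mixed in as a spike-in. IAA on a strain without degrons and libraries without 4tU were not analysed here, so neither an effect of IAA itself nor the rate of T>C reads without 4tU can be given.

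Ribosomal protein genes are among the most heavily transcribed genes of growing yeast, and their mRNAs are stable. Most of their promoters are bound by Rap1, which brings in Fhl1, Ifh1 and Sfp1, and many of the genes are duplicated, with paralogs whose proteins are identical or nearly so. Bdf1 and its paralog Bdf2 bind acetylated nucleosomes near promoters and contact the general transcription factor TFIID. A nascent RNA that took up 4tU shows T-to-C conversions, and a read with at least 2 of them was counted as a T>C read, a measure of RNA made during the labelling time. The labelled share used here is the percentage of a gene's reads that were T>C reads, which falls when fewer new molecules are made relative to the RNA already there.

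The libraries held 6279282 to 11395597 S. cerevisiae reads, with 90321 to 330857 T>C reads, and 445036 to 722822 S. pombe reads. The labelled share of S. pombe reads lay between 2.53 and 3.22% in every library, with group means of 2.99% and 3.05% in the ET strain with IAA and with DMSO, and of 2.72% and 2.88% in the control strain with IAA and with DMSO. BDF1 gave 336 to 494 T>C reads in the libraries labelled as the ET strain and 42 to 86 in the control strain, and TRP1 gave 43 to 102 and 0 to 4. A single 40S protein gene had between 16 and 1081 T>C reads in a library, so counting error limits what the less active members can show. The methods of the study describe the replicates as biological.

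Together the 56 genes gave 16.2% ± 0.0946 of all reads in the ET strain with IAA and 14.8% ± 0.584 with DMSO, against 16.2% ± 0.943 in the control strain with IAA and 14.9% ± 0.438 with DMSO (SD, n = 3 each). Their part of the T>C reads was smaller, at 6.20% ± 0.210 and 6.12% ± 0.131 in the ET strain with IAA and with DMSO, and 5.59% ± 0.223 and 5.97% ± 0.145 in the control strain with IAA and with DMSO. They were thus a larger part of all reads than of T>C reads. The T>C reads were not corrected for T content or for T>C reads that arise without 4tU. Per kilobase of interval, the most T>C reads in the control strain with DMSO came from RPS29B and RPS29A, which encode a small zinc-binding protein of the subunit head, with 110.6 ± 8.42 and 105 ± 5.14 T>C RPM per kilobase (SD, n = 3 each), where RPM is the count scaled to the S. cerevisiae reads of the library. RPS31, which encodes ubiquitin fused to a ribosomal protein, had 92.4 and RPS12 had 88.8 on the same scale, while RPS9A had 7.77 ± 1.62 and RPS14B had the lowest value, 4.92 ± 0.709. The libraries were 3′ mRNA-seq, so division by length can favour short intervals. Without it RPS27B was above RPS29B in that group, with 821, 838 and 635 T>C reads against 445, 547 and 409. All intervals of the members ran 250 bases past the 3′ end of the annotated gene, and 4 members shared bases with another interval on their strand, the largest stretch being the 461 bases that RPS22B shares with SNR44, a snoRNA inside its intron.

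The labelled share varied widely among the members, and a few single copies of pairs had the highest values. In the control strain with DMSO it ran from 0.478% to 4.75% with a median of 1.15%. RPS9A (YPL081W, chrXVI:404950-406294, plus strand), which encodes a protein near the mRNA entry channel, had 4.70% ± 0.493 in the ET strain with IAA and 5.07% ± 0.571 with DMSO, and 3.84% ± 0.247 in the control strain with IAA and 4.75% ± 0.981 with DMSO. It was the highest member in all 4 groups. RPS27A had 3.61% ± 0.561 in the control strain with DMSO, and RPS26A, whose protein lies at the mRNA exit channel, had the lowest share of that group, 0.478% ± 0.0369. Behind the share of RPS9A stood 75, 75 and 98 T>C reads in the ET strain with IAA and 98, 114 and 119 with DMSO, and 59, 48 and 58 in the control strain with IAA and 100, 139 and 78 with DMSO. For RPS26A they were 155, 96 and 137 in the ET strain with IAA and 294, 291 and 318 with DMSO, and 112, 75 and 115 in the control strain with IAA and 261, 251 and 245 with DMSO. RPS26A thus had more T>C reads than RPS9A from a pool of reads many times larger, 51400, 57443 and 49990 against 2173, 2400 and 2028 in the control strain with DMSO. RPS10B, whose protein lies in the beak of the head, had the next lowest share, 0.513% ± 0.0842 in that group, from 193, 152 and 149 T>C reads. Across the 56 members the log2 labelled share and the log2 RPM of all reads in that group had a Pearson r of -0.71 and a Spearman rho of -0.74, a description in which the read count enters both measures. The chance of a conversion depends on the T bases read. The percentage of T over the whole interval, introns included, had r = -0.05 and rho = -0.03 with the log2 share over the same members. It ran only from 27.9 to 36.8% and is not that of the stretch read in 3′ libraries. It therefore cannot show whether T content matters to the share. Interval length had r = 0.30 and rho = 0.37.

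**Figure D1:**
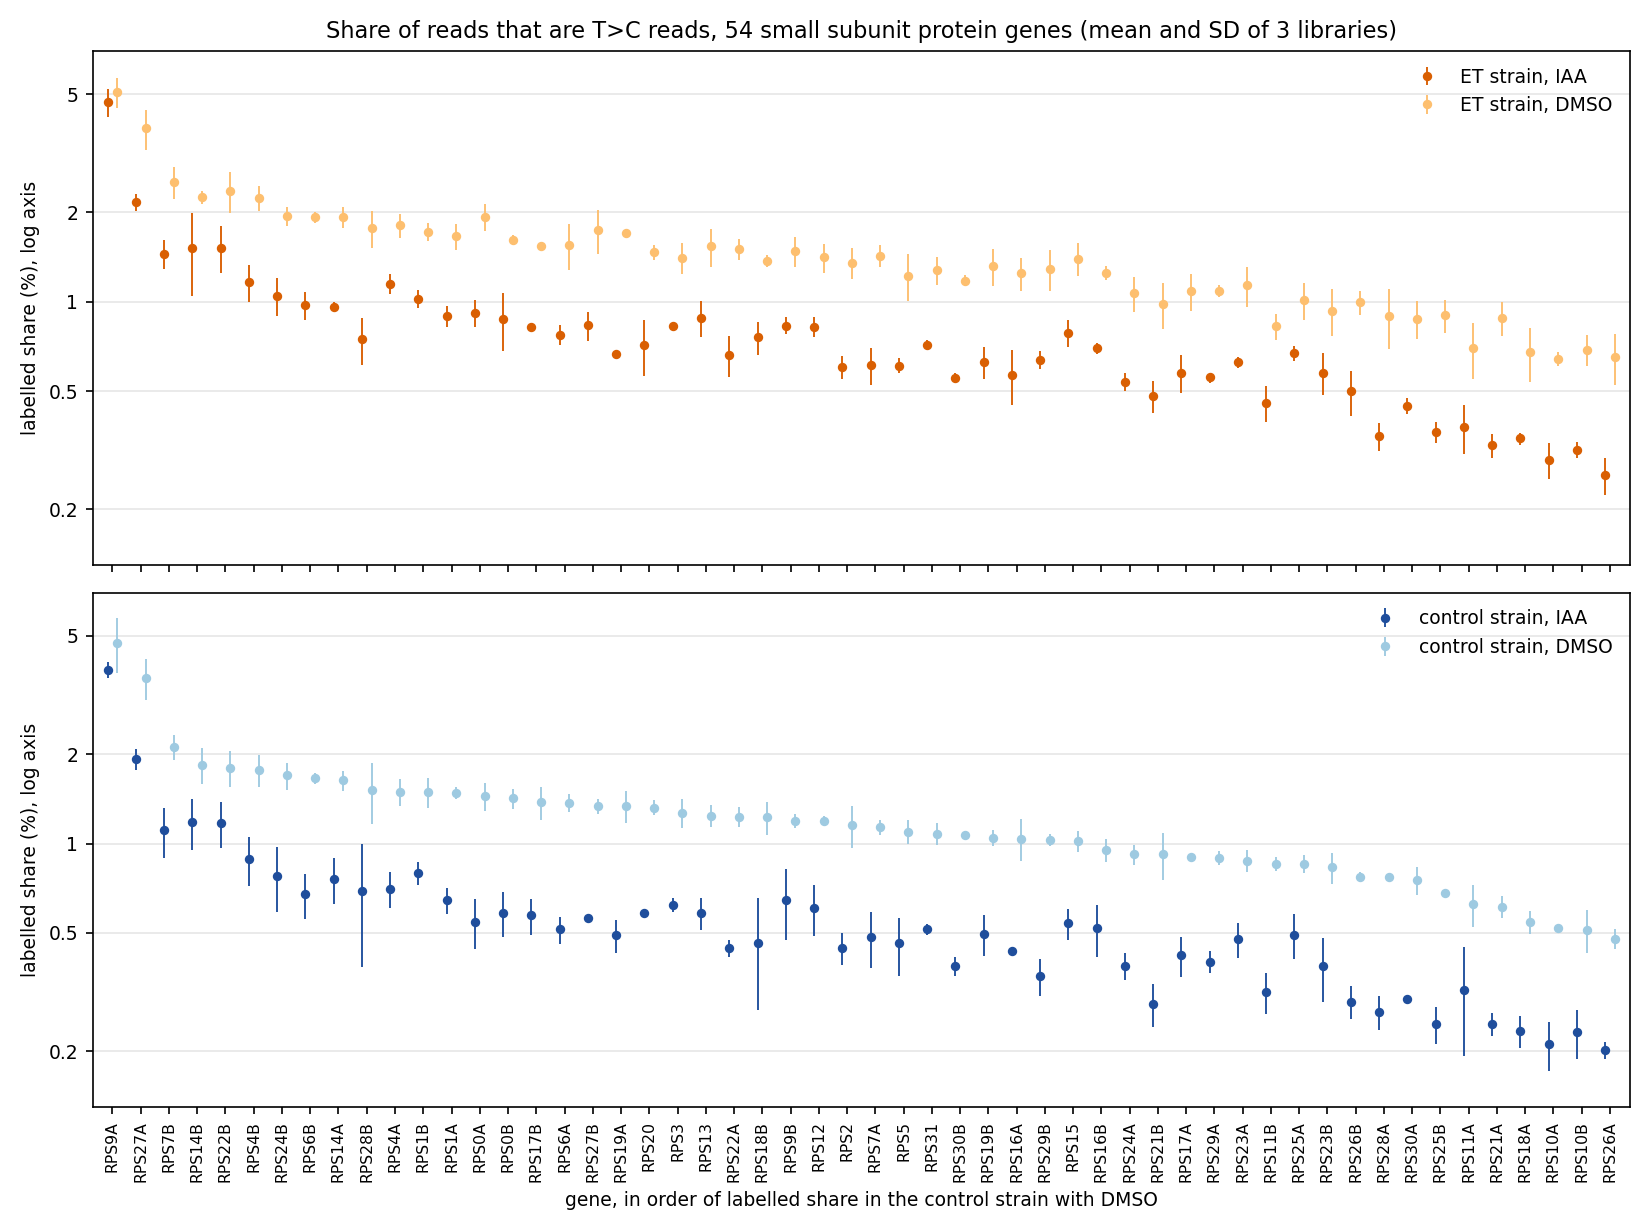
Labelled share of 54 of the 56 genes of 40S ribosomal proteins (percentage of reads with at least 2 T>C conversions, vertical log axis), in order of the share in the control strain with DMSO, with the ET strain in the upper panel, the control strain in the lower panel and IAA left of DMSO for each gene. Points are means and bars SDs of 3 libraries; RPS9A is the highest gene in all 4 groups, at 4.70% and 5.07% in the ET strain with IAA and with DMSO.

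Within pairs, the A and B copies contributed unequally to different degrees. In the control strain with DMSO, 14 of the 24 pairs gave T>C reads within 1.5-fold of each other and 6 differed by over 2-fold. RPS28A gave 84.5% and RPS14A gave 84.7% of the T>C reads of their pairs. The A over B ratio of RPS28 was 5.71, 4.28 and 5.31 in the ET strain with IAA and 4.88, 3.88 and 7.47 with DMSO, and 8.94, 4.00 and 4.20 in the control strain with IAA and 6.06, 4.34 and 7.0 with DMSO. The libraries with IAA and with DMSO overlapped in both strains. T>C reads and all reads did not always name the same leading copy, or not to the same degree. RPS18A gave 41.9% of the T>C reads of its pair but 61.9% of the reads in the control strain with DMSO. RPS9A gave 31.6% of the T>C reads of its pair but 10.3% of the reads, and RPS27A gave 25.8% and 11.5%, both in the control strain with DMSO. In 55 of the 56 members under 2% of reads mapped to several places.

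With IAA the balance of T>C reads shifted within 3 of the 24 member pairs over both strains: toward RPS25A, toward RPS22B and toward RPS14B. That part is no larger than the 15.9% of all 63 pairs of A and B genes that changed. The RPS25 pair encodes a protein of the head that is needed by some viral internal ribosome entry sites, the RPS22 pair a protein of the body that binds rRNA early in assembly, and the RPS14 pair a protein of the platform. The RPS14B transcript is held down by the Rps14 protein, which binds the unspliced RNA. The genes are RPS25A (YGR027C, chrVII:533882-534458, minus strand), RPS25B (YLR333C, chrXII:795323-795899, minus), RPS22A (YJL190C, chrX:74660-75302, minus), RPS22B (YLR367W, chrXII:856442-857567, plus), RPS14A (YCR031C, chrIII:177250-178220, minus) and RPS14B (YJL191W, chrX:73787-74861, plus), given as the counted intervals on R64. The intervals of RPS14B and RPS22A share 202 bases at their facing 3′ ends on opposite strands, and they received 39188 and 317400 reads over the 12 libraries. How much of either count came from the other gene was not tested. Only RPS14A, RPS14B and RPS22B of these have an intron.

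A stretch of 300 bases that begins 400 bases before the start codon is shown for 5 of these genes, from the RefSeq copy of R64, because this is where copies of a pair that encode nearly the same protein can differ. Sequences run 5′ to 3′ on the strand of the gene. Capitals mark a match to TATAAA or AAAATTTT in a search of both strands, and TTTATA is TATAAA on the other strand.
RPS25A: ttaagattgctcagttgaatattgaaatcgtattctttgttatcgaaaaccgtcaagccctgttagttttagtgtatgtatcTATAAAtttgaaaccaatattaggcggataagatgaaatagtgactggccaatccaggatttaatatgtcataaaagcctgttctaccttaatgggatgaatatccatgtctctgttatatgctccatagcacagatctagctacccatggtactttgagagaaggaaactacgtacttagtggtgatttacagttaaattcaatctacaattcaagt
RPS25B: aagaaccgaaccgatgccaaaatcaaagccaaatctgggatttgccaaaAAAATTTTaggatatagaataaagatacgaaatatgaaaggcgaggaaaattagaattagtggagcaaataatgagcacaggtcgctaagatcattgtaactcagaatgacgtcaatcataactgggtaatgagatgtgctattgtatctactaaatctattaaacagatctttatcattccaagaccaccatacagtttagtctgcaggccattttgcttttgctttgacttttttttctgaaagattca
RPS14A: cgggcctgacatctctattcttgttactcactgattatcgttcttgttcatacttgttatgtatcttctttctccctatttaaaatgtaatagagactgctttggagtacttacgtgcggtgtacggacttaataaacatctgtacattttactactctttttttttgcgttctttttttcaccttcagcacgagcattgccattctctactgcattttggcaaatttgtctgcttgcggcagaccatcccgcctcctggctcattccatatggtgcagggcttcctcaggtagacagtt
RPS14B: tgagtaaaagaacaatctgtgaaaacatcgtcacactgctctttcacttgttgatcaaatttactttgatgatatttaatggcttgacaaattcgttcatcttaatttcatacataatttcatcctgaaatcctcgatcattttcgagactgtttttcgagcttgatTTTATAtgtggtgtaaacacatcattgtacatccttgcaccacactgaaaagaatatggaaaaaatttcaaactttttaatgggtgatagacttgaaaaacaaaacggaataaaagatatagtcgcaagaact
RPS22A: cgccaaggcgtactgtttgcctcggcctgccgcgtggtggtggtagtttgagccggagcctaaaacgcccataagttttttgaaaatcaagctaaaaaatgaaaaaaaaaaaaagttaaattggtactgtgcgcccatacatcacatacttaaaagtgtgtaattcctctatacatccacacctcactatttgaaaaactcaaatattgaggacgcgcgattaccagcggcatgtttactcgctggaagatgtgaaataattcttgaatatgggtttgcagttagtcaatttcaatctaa
The windows lie at chrVII:534559-534858 (minus) for RPS25A, chrXII:796000-796299 (minus) for RPS25B, chrIII:178321-178620 (minus) for RPS14A, chrX:73387-73686 (plus) for RPS14B and chrX:75403-75702 (minus) for RPS22A. TATAAA, a form of the TATA box, was in 20 of the 56 members' windows (35.7%) and in 43.8% of the windows of 6001 protein-coding genes, and the AT run AAAATTTT in 4 (7.14%) and 9.07%. ACCCNNACA, a core of the Rap1 site, was in 13 of 56 (23.2%) against 3.93% of all windows, and the core of the Abf1 site in 9 (16.1%) against 17.2%. None of the 5 windows shown holds ACCCNNACA. These are matches of letters in this window alone.

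RPS25A made a larger part of its pair with IAA. Its T>C reads, divided by size factors from all reads, were 356, 371 and 340 in the ET strain with IAA and 227, 249 and 259 with DMSO, and 303, 348 and 276 in the control strain with IAA and 218, 231 and 196 with DMSO. RPS25B had 128, 132 and 113 in the ET strain with IAA and 149, 161 and 151 with DMSO, and 113, 84.7 and 85.1 in the control strain with IAA and 110.1, 124 and 122 with DMSO. The A over B ratio was thus 2.77, 2.81 and 3.00 in the ET strain with IAA and 1.52, 1.55 and 1.72 with DMSO, and 2.69, 4.11 and 3.24 in the control strain with IAA and 1.98, 1.86 and 1.61 with DMSO. Every library with IAA lay above every library with DMSO. Over both strains the log2 ratio was higher by 0.82 with IAA (SE 0.12, adjusted p = 0.000193, limma), and an exact two-sided permutation test within strains gave p = 0.005, the smallest that its 400 arrangements allow.

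The RPS22 pair moved toward its B copy. The A over B ratio of T>C reads was 1.38, 1.91 and 1.49 in the ET strain with IAA and 2.65, 2.33 and 2.18 with DMSO, and 1.27, 1.15 and 1.90 in the control strain with IAA and 2.54, 2.65 and 2.73 with DMSO. No library with IAA reached the lowest with DMSO, and the log2 ratio fell by 0.74 (SE 0.13, adjusted p = 0.00034, limma; exact p = 0.005). Subtraction of the T>C reads of SNR44 from those of RPS22B, an alternative chosen after seeing the data, left the difference at -0.73 (adjusted p = 0.000425, limma). For RPS14 the ratio was 2.22, 4.10 and 2.87 in the ET strain with IAA and 4.91, 4.29 and 4.58 with DMSO, and 4.09, 3.90 and 3.03 in the control strain with IAA and 5.47, 4.67 and 7.0 with DMSO. The groups did not overlap within either strain, and the log2 ratio fell by 0.64 (SE 0.15, adjusted p = 0.00417, limma; exact p = 0.005).

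**Figure D2:**
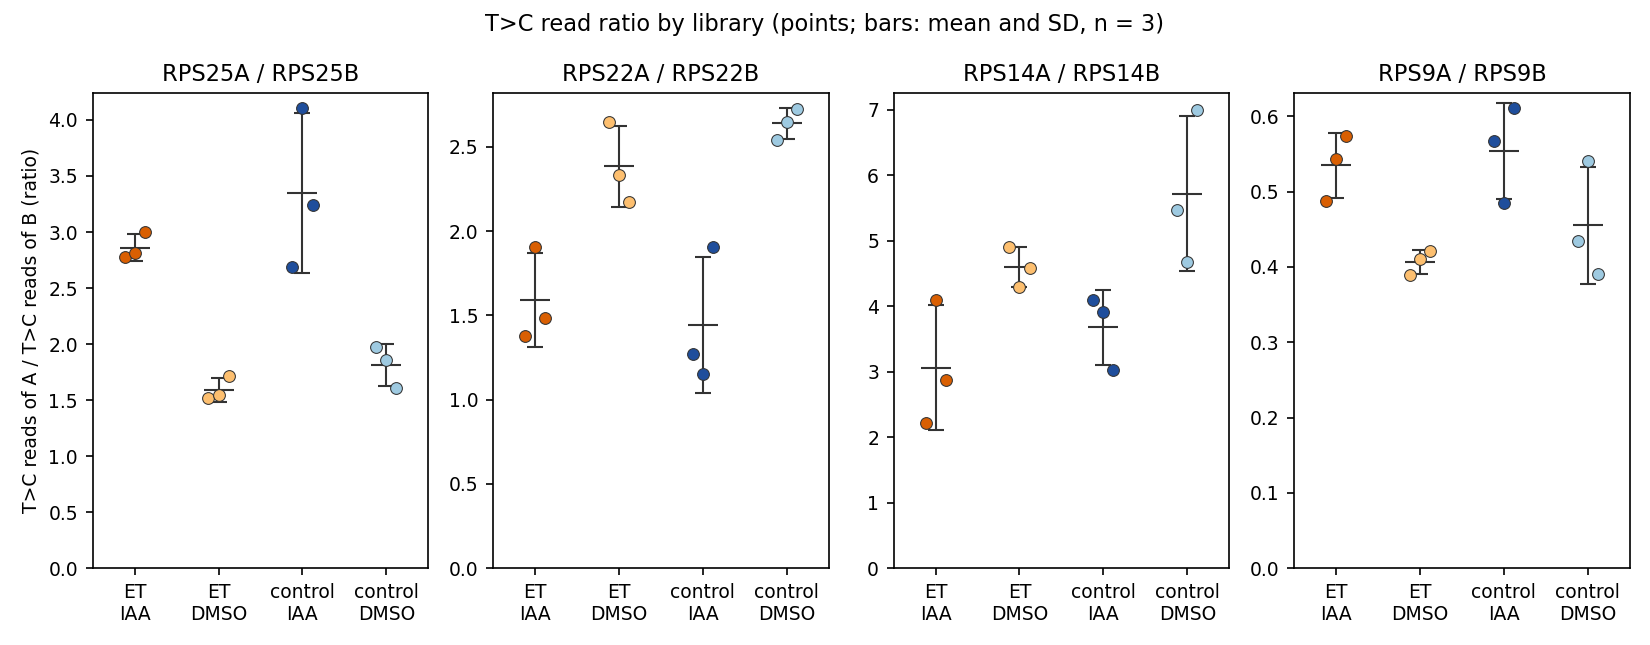
A over B ratio of T>C reads by library (linear axis from 0) in the RPS25, RPS22, RPS14 and RPS9 pairs, with the ET strain left of the control strain and IAA left of DMSO. Points are libraries and bars the group mean and SD, and with IAA RPS25 lies at 2.69 to 4.11 against 1.52 to 1.98 with DMSO.

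The ratio of T>C reads changed in these 3 of the 24 member pairs, and in 10 of all 63 pairs of A and B genes tested together (15.9%), of which 7 were among the 39 pairs of other genes. Within single strains, RPS25 (0.84, adjusted p = 0.00178, limma), RPS14 (-0.68, adjusted p = 0.0198) and RPS22 (-0.59, adjusted p = 0.0198) passed in the ET strain, where 12.7% of all pairs did. RPS22 (-0.89, adjusted p = 0.0127) and RPS25 (0.80, adjusted p = 0.0145) passed in the control strain, where 6.35% of all pairs did, and RPS14 did not pass there (-0.61, adjusted p = 0.129). Leaving out any single library kept all 3 calls over both strains, with log2 differences of 0.76 to 0.91 for RPS25, -0.85 to -0.69 for RPS22 and -0.73 to -0.53 for RPS14. No member pair had a T>C ratio that differed between the ET strain and the control strain over both treatments, by limma, and none had an unadjusted p under 0.05. The change with IAA differed between strains in none either, and 1 member pair had an unadjusted p under 0.05, RPS21 (-0.69, adjusted p = 0.984, limma).

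The ratio of all reads, most of which are from RNA made before labelling, changed with IAA in 10 of the 24 member pairs, where 58.7% of all 63 pairs did. RPS27 fell by 0.42 on the log2 scale (adjusted p = 2.54e-06, limma), away from RPS27A, RPS9 fell by 0.34 (adjusted p = 1.80e-05), away from RPS9A, and RPS7 was higher by 0.31 (adjusted p = 2.08e-05), toward RPS7A. The RPS9 pair differed in sign between measures. Its A over B ratio of T>C reads was 0.487, 0.543 and 0.573 in the ET strain with IAA and 0.389, 0.410 and 0.420 with DMSO, and 0.567, 0.485 and 0.611 in the control strain with IAA and 0.435, 0.541 and 0.390 with DMSO, a log2 difference of 0.33 that did not pass (SE 0.12, adjusted p = 0.0609, limma; exact p = 0.01). Its ratio of all reads was 0.0948 ± 0.00556 in the ET strain with IAA and 0.119 ± 0.00778 with DMSO, and 0.0913 ± 0.00744 in the control strain with IAA and 0.115 ± 0.00343 with DMSO (SD, n = 3 each). The RPS9 copies are known to regulate each other through their introns. Between strains, over both treatments, 7 of the 24 member pairs had a changed ratio of all reads, where 28.6% of all 63 pairs did, the largest change being that of RPS14 (-0.27), whose B copy took more of the pair in the ET strain.

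**Figure D3:**
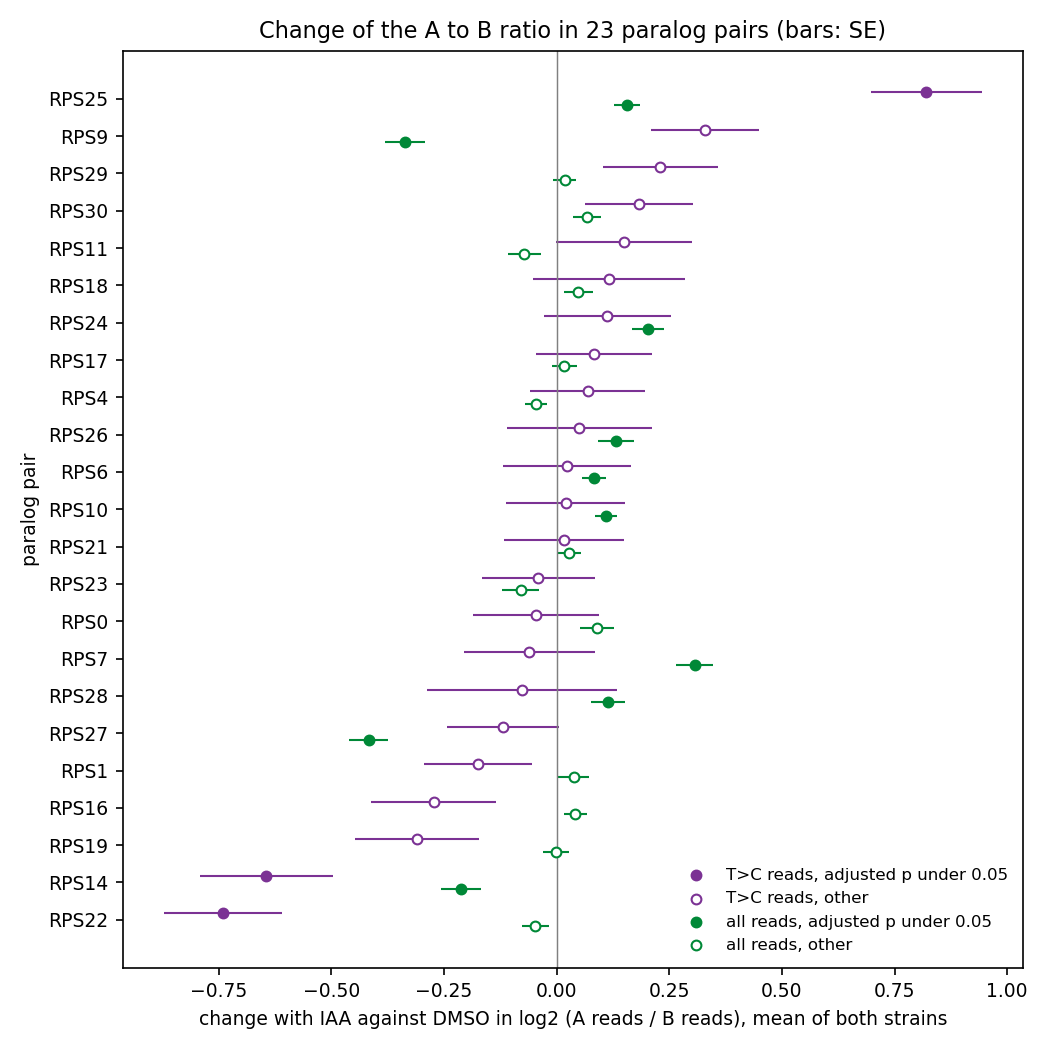
Change of the log2 A over B ratio with IAA, over both strains, for T>C reads and for all reads in 23 of the 24 member pairs. Bars are standard errors from limma and filled points passed at an adjusted p of 0.05 over 63 pairs. RPS25 (0.82), RPS22 (-0.74) and RPS14 (-0.64) have the largest changes in T>C reads, and RPS27 (-0.42), RPS9 (-0.34) and RPS7 (0.31) in all reads.

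The labelled share of nearly every 40S protein gene was lower with IAA than with DMSO. The share of the median member was 0.685% in the ET strain with IAA and 1.39% with DMSO, and 0.495% in the control strain with IAA and 1.15% with DMSO. In 55 of the 56 members no library with IAA reached the lowest library with DMSO, in the ET strain and in the control strain alike, where 49.8% and 49.3% of all 3677 genes showed this. The test across all genes (limma on the log2 ratio of T>C reads to other reads) called 52 members lower in the ET strain and 54 in the control strain, where 21.6% and 31.4% of all genes were called lower. The median member had a mean of 202 T>C reads per library, whereas a gene needed only 1 in every library to be tested. Shares of all genes given here and below were not matched to the members for read count. The median change of the members was -0.95 and -1.19 in the ET and control strains, against -0.64 and -0.68 over all genes tested. This larger fall of the share was not a larger fall of T>C reads. Scaled by S. pombe reads, the members' median change of T>C reads lay 0.55 and 0.51 above that of all genes in the ET and control strains. For all reads it lay 0.91 and 1.04 above. Among other genes, the pooled labelled share was 1.94% ± 0.107 and 3.40% ± 0.309 in the ET strain with IAA and with DMSO, and 1.54% ± 0.0711 and 2.93% ± 0.0575 in the control strain (SD, n = 3 each). Leaving out single libraries left 39 to 54 members called in the ET strain and 51 to 55 in the control strain.

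RPS21B (YJL136C, chrX:156300-157273, minus strand), which encodes a protein of the body, had the largest fall of the share in the control strain, to 0.289% ± 0.0478 with IAA against 0.920% ± 0.168 with DMSO (log2 change -1.67, adjusted p = 0.00029, limma). RPS29B in the head followed, with -1.54 in the control strain and -1.01 in the ET strain. At the other end, RPS9A did not pass in either strain, with -0.11 (adjusted p = 0.693) in the ET strain and -0.29 (adjusted p = 0.324) in the control strain. RPS14B did not pass either, with -0.62 (adjusted p = 0.085) and -0.66 (adjusted p = 0.057), and RPS22B (-0.64, adjusted p = 0.056) and RPS11A (-0.88, adjusted p = 0.056) missed the threshold in the ET strain alone. With limma weights from counting error, chosen after seeing the data, RPS9A was the only member not called in either strain. The share of all genes called with these weights is not given here. Members ranked alike in both strains: over the 56 genes, which share their sequence and counted interval but no library between the strains, the changes had r = 0.76 and rho = 0.74.

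The direction of the T>C counts themselves depended on how libraries were scaled. The methods of the study take normalization factors from total read counts and do not state whether by sum or by median of ratios. With size factors by median of ratios from all S. cerevisiae reads, 8 members had more T>C reads with IAA in the ET strain. By the same test, edgeR's quasi-likelihood test, 0 had fewer. In that strain 13 members had an unadjusted p under 0.05 in either direction. Of all genes 12.1% were called higher there and 30.2% lower at the adjusted threshold, and their share under an unadjusted p of 0.05 is not given here. In the control strain 7 members were called higher and 1 lower, against 14.3% and 28.7% of all genes. The median change of the members was 0.08 in the ET strain and 0.06 in the control strain, against -0.48 and -0.46 over all genes. Size factors of this kind hold the median gene of all reads constant, and the size factor per read was 0.736 to 0.825 in the ET strain with IAA and 1.40 to 1.55 with DMSO, and 0.632 to 0.679 in the control strain with IAA and 1.39 to 1.49 with DMSO. Scaled by S. pombe reads, 55 members were lower in each strain, with medians of -1.10 in the ET strain and -1.27 in the control strain, where 83.8% and 81.7% of all genes were lower. Scaled by the sum of S. cerevisiae reads, 54 were lower in the ET strain and 55 in the control strain, with medians of -0.85 and -1.09, where 79.6% and 79.7% of all genes were lower. The members lay 0.56 and 0.53 above the median of all genes with the size factors, in the ET and control strains, a difference that a change of scaling hardly affects by construction.

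With the size factors, RPS14B, RPS22B, RPS25A and RPS9A were called higher in both strains. RPS14B had 108.0, 52.2 and 70.7 normalised T>C counts in the ET strain with IAA and 44.2, 44.8 and 46.1 with DMSO, and 52.3, 69.1 and 66.4 in the control strain with IAA and 35.9, 39.8 and 29.2 with DMSO. All 3 libraries with IAA were above all 3 with DMSO in each strain, by 0.75 in the ET strain (SE 0.22, adjusted p = 0.00376, edgeR) and 0.82 in the control strain (SE 0.25, adjusted p = 0.00442). With the highest library, replicate A of ET IAA, left out, the change there was 0.45 with an adjusted p of 0.14. RPS22B had 150.4, 122 and 177 in the ET strain with IAA and 106, 105 and 124 with DMSO, and 139, 134 and 107 in the control strain with IAA and 85.6, 90.3 and 72.1 with DMSO. It was higher by 0.43 in the ET strain (adjusted p = 0.0258), where its groups overlapped, and by 0.61 in the control strain (SE 0.18, adjusted p = 0.00382), and RPS25A by 0.54 (adjusted p = 0.000662) and 0.52 (adjusted p = 0.00146). RPS9A had 109.5, 93.3 and 109.9 normalised T>C counts in the ET strain with IAA and 67.7, 62.3 and 76.2 with DMSO, and was higher by 0.60 there (SE 0.18, adjusted p = 0.00625) and by 0.52 in the control strain (adjusted p = 0.0261). RPS12 was also called higher in both strains, RPS23B and RPS31 in the ET strain alone and RPS15 in the control strain alone. Scaled by S. pombe reads, the same changes were negative, at -0.43 and -0.50 for RPS14B and -0.58 and -0.81 for RPS9A in the ET and control strains.

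Among the members with the most T>C reads per kilobase, the T>C counts of the paralogs RPS29A and RPS29B did not pass in either strain. RPS29B had 362, 299.8 and 365 normalised T>C counts in the ET strain with IAA and 365, 288 and 361 with DMSO, and 261, 269.7 and 262 in the control strain with IAA and 280.1, 345 and 298 with DMSO. RPS29A had 374, 318 and 357 in the ET strain with IAA and 361, 327 and 309 with DMSO, and 361, 317 and 318 in the control strain with IAA and 298, 290.4 and 287 with DMSO. RPS31 was called in the ET strain, with 654, 648 and 684 with IAA and 513, 497 and 563 with DMSO (0.34, adjusted p = 0.0154, edgeR), and had 537, 479 and 536 in the control strain with IAA and 422, 495 and 381 with DMSO (0.26, adjusted p = 0.0732). Its libraries overlapped in the control strain and not in the ET strain. RPS28B, whose own protein promotes decay of its mRNA, had 40.9, 53.5 and 50.5 in the ET strain with IAA and 62.9, 61.2 and 46.1 with DMSO, and 25.4, 60.2 and 51.1 in the control strain with IAA and 42.8, 64.4 and 35.7 with DMSO. The groups of RPS28B overlapped in both strains, with changes of -0.22 (adjusted p = 0.424) and -0.11 (adjusted p = 0.739).

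RPS21B was the member called lower on this scale, in the control strain. It had 93.5, 100.3 and 85.1 normalised T>C counts with IAA and 146, 116 and 110.0 with DMSO, a change of -0.42 (SE 0.18, adjusted p = 0.0478, edgeR), and its groups did not overlap. The call was lost without any 1 of 5 libraries, with values of -0.42 (adjusted p = 0.0507) when replicate A of ET DMSO was left out, -0.29 (adjusted p = 0.245) when replicate A of control DMSO was, and -0.43 (adjusted p = 0.101), -0.47 (adjusted p = 0.0546) and -0.36 (adjusted p = 0.161) when replicates A, B and C of control IAA were. In the ET strain its change was -0.01. The paralog RPS21A had -0.34 in the ET strain (adjusted p = 0.057) and -0.06 in the control strain.

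The level of all reads, scaled by S. pombe reads, changed little in most members. The test called 3 lower with IAA in either strain, the same 3 genes in both, where 75.8% of all genes in the ET strain and 74.2% in the control strain were lower. The median change of the members was -0.13 in the ET strain and -0.09 in the control strain, against -1.03 and -1.13 over all genes. RPS9A had 1420, 1605 and 1892 scaled reads in the ET strain with IAA and 2009, 2113 and 2662 with DMSO, and 1549, 1593 and 1517 in the control strain with IAA and 2041, 2329 and 2185 with DMSO. Its groups did not overlap, and its log2 change was -0.46 in the ET strain (adjusted p = 0.00632, edgeR) and -0.49 in the control strain (adjusted p = 0.00371). RPS27A changed by -0.51 (adjusted p = 0.00171) in the ET strain and -0.47 (adjusted p = 0.00406) in the control strain, and RPS7B by -0.34 (adjusted p = 0.0351) and -0.47 (adjusted p = 0.00364). RPS9A and RPS27A were also the members with the highest labelled shares in the control strain with DMSO, and RPS7B had 2.12% there. Over all 56 members, that log2 share and the change of all reads in the ET strain had r = -0.45 and rho = -0.27. In the ET strain, 20 members were called without replicate C of the IAA group and 1 without replicate C of the DMSO group. RPS7B there was lost without replicate C of the DMSO group (-0.24, adjusted p = 0.167), and without replicate A (-0.25, adjusted p = 0.153) or B (-0.32, adjusted p = 0.0932) of the IAA group, and RPS9A without replicate C of the DMSO group (-0.33, adjusted p = 0.0565). With the replicate letter as a block, 7 members were lower in each strain. Shares of all genes with a library left out or with the block are not given here. Scaled by the sum of S. cerevisiae reads, 2 members were lower and 19 higher in the ET strain, where 70.9% and 8.87% of all genes were, and 3 were lower and 14 higher in the control strain, where 72.3% and 8.97% were.

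**Figure D4:**
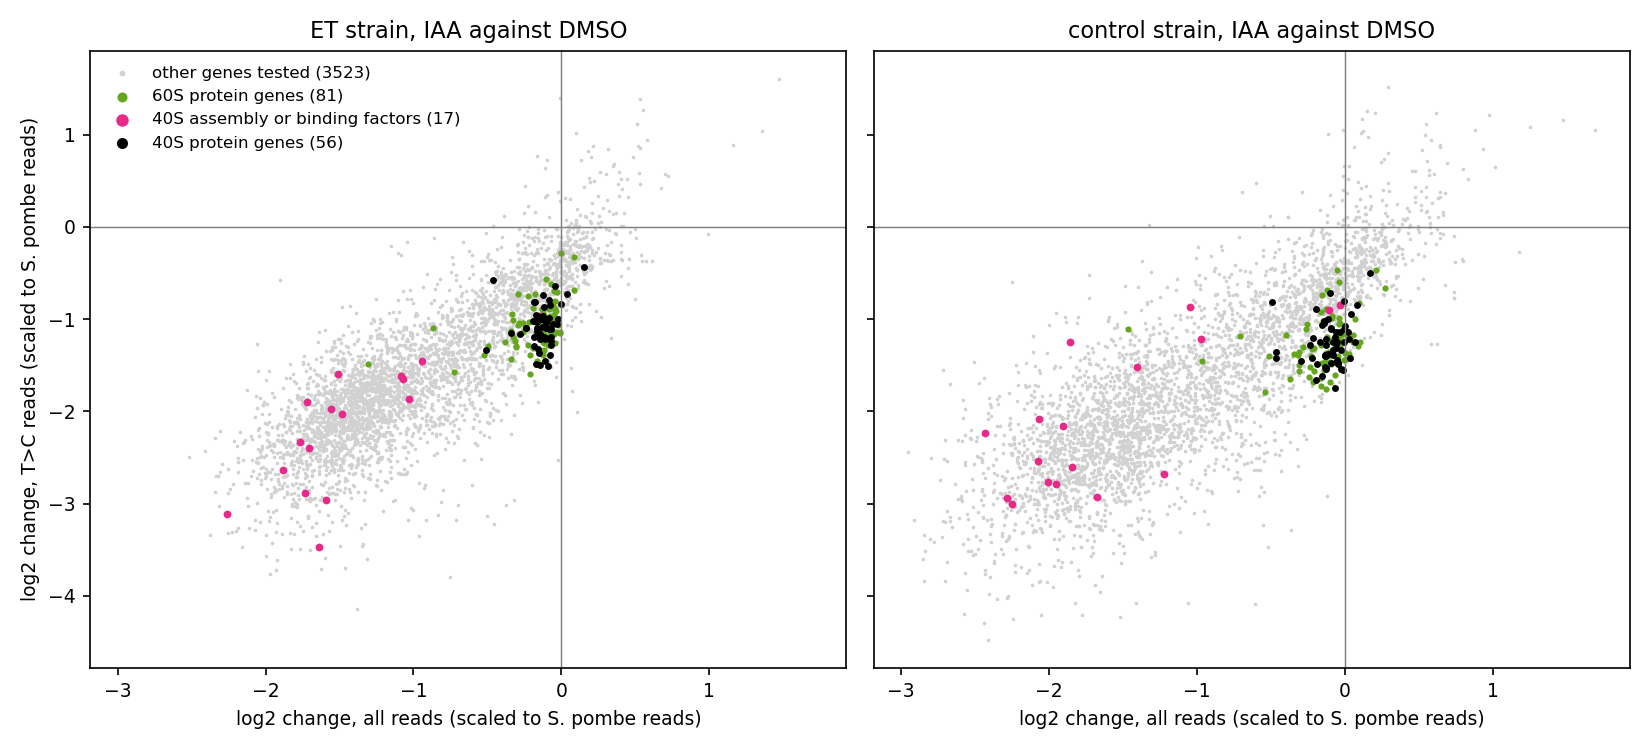
Log2 change with IAA against DMSO in T>C reads (vertical) and in all reads (horizontal), both scaled by S. pombe reads, with the ET strain left of the control strain. Black points are the 56 members, green points 60S protein genes, pink points 40S assembly and binding factors, and grey points the other genes tested; the members sit near 0 in all reads, with medians of -0.13 and -0.09, and below 0 in T>C reads, with medians of -1.10 and -1.27.

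The ET strain had somewhat higher labelled shares of 40S protein genes than the control strain, with IAA and with DMSO, and the tests of single genes did not settle this. With IAA, 43 of the 56 members had higher shares in all 3 libraries of the ET strain than in any of the control strain, where 19.0% of all genes did. With DMSO, 24 did, where 17.2% of all genes did. The median member differed by 0.46 with IAA and 0.25 with DMSO, against 0.27 and 0.21 over all genes. The share depends on both kinds of reads. Scaled by S. pombe reads, the members' median strain difference with IAA departed from that of all genes by 0.07 in T>C reads and by -0.17 in all reads. The main limma test called 0 members in either treatment, with 40 members at an unadjusted p under 0.05 with IAA and 11 with DMSO. The share of all genes at that level is not given here, so these counts alone do not show whether members differ from other genes. With weights from counting error, chosen after seeing the data, 28 were higher with IAA and 17 with DMSO, where 4.24% and 2.80% of all genes were higher. The S. pombe reads also had a higher mean labelled share in the ET strain, with libraries that overlapped. It was 2.99% against 2.72% with IAA and 3.05% against 2.88% with DMSO. How much of the members' difference goes with this was not tested. Whether the response of the share to IAA differed between strains was not tested either. The comparison of 2 strains cannot tell the ET domain apart from any other difference between them.

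In T>C counts, 1 member was higher in the ET strain with IAA, where 0.707% of all genes were higher and 0.571% lower. RPS18B (YML026C, chrXIII:222737-223828, minus strand), which encodes a head protein that contacts the large subunit, had 204, 215 and 248 normalised T>C counts in the ET strain and 158, 192 and 92.0 in the control strain, both with IAA. The groups did not overlap, the difference was 0.62 (SE 0.17, adjusted p = 0.0277, edgeR), and replicate C of the control strain was the lowest by far. Without it the difference was 0.36 (adjusted p = 0.368), and the call was also lost when control replicate A was left out (0.69, adjusted p = 0.0593) or replicate B (0.64, adjusted p = 0.0623) or C (0.53, adjusted p = 0.173) of the ET strain. The median member differed by 0.24, against 0.17 over all genes. Scaled by the sum of S. cerevisiae reads, 38 members were higher in the ET strain with IAA, where 13.1% of all genes were, and scaled by S. pombe reads 1 was, where 1.69% were. With DMSO, edgeR called 0 members, where 0.136% of all genes were called higher and 0.0272% lower. There 13 members had an unadjusted p under 0.05, and the share of all genes at that level is not given here. A different response to IAA in the 2 strains was called for 0 members by edgeR, with 0 at an unadjusted p under 0.05, where 0.109% of all genes were called.

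RPS15 (YOL040C, chrXV:252899-253577, minus strand), which encodes a head protein, was the member called on all reads between strains. It had 26569, 19087 and 27335 reads, scaled by S. pombe reads, in the ET strain with IAA and 42890, 30373 and 42345 in the control strain with IAA. All 3 libraries of the ET strain were below those of the control strain, by -0.66 (SE 0.15, adjusted p = 0.00176, edgeR), where 1.99% of all genes were lower. Without replicate B of the ET strain the difference was -0.52 with an adjusted p of 0.069, and with the replicate letter as a block it was -0.44 with an adjusted p of 0.246. With DMSO the scaled reads of RPS15 were 32788, 23359 and 27335 in the ET strain and 30247, 38101 and 40663 in the control strain, which overlap. The difference there had the same sign, at -0.38 (unadjusted p = 0.0116, adjusted p = 0.665, edgeR). The response of its reads to IAA was not called different between strains (-0.28, adjusted p = 0.999, edgeR).

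Genes of head proteins and of other proteins, and genes with and without an intron, gave close medians. The labelled share was lower in 22 of 22 genes of head proteins in each strain, with medians of -0.99 in the ET strain and -1.20 in the control strain. Among 34 genes of body and platform proteins it was lower in 30 in the ET strain and in 32 in the control strain, with medians of -0.91 and -1.18. Genes with an intron had medians of -0.93 and -1.19 in the ET and control strains, and genes without one -0.99 and -1.19, with 32 and 34 of 36 and 20 and 20 of 20 called. All 4 members that missed the threshold in some strain, RPS9A, RPS14B, RPS22B and RPS11A, have an intron and encode proteins of the body or platform.

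The 81 genes of large (60S) subunit proteins gave values close to those of the 40S genes. Their labelled share was lower in 73 in the ET strain and 76 in the control strain, with medians of -0.93 and -1.18, and their T>C reads scaled by size factors had medians of 0.06 and 0.03. All reads were lower in 11 and 8 of them. The regulators of these promoters were close to the genes as a whole in all reads. Of 11 regulators, 10 were tested and all 10 were lower in both strains, with medians of -0.89 in the ET strain and -1.07 in the control strain, against -1.03 and -1.13 over all genes, of which 75.8% and 74.2% were lower. RAP1, which encodes the factor bound at most ribosomal protein promoters, changed by -1.48 and -1.79, FHL1 by -1.43 and -1.65 and IFH1, the coactivator, by -0.74 and -0.85, in the ET and control strains. Of 19 genes of 40S assembly and 40S-bound factors, 17 were tested and 15 were lower in all reads in each strain, with medians of -1.56 and -1.86, against the same 75.8% and 74.2% of all genes. The 2 that were not were ASC1, which encodes a protein of the mature head, and STM1, which encodes a factor that holds idle ribosomes together. In T>C reads scaled by size factors, 2 regulators were lower in the ET strain (FHL1, -0.74, and STB3, -1.14) and 1 in the control strain (RAP1, -0.93, adjusted p = 0.0258, edgeR). Of the assembly genes, 10 were lower and 0 higher in the ET strain, and 9 were lower and 2 higher in the control strain, the 2 being ASC1 (0.42) and STM1 (0.46). Over all genes 30.2% were lower and 12.1% higher in the ET strain, and 28.7% lower and 14.3% higher in the control strain. Between strains with IAA, 9 of the 17 had more of all reads in the ET strain, LTV1 (0.72) and TSR1 (0.73) among them, where 14.5% of all genes did, while 0 of the 56 ribosomal protein genes did by the same edgeR test, 1 of them having an unadjusted p under 0.05, RPS15, which was lower.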

How the data were processed

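SLAM-seq counts of 12 libraries were used. Per the labels and the methods of the study, libraries from RNA alkylated with iodoacetamide were 3′ mRNA-seq, trimmed with fastp 0.23.2, and aligned and counted with SLAM-DUNK 0.4.3 on R64 (S. cerevisiae) and ASM294v2 (S. pombe). The deposited tables hold counts per interval of all reads and of T>C reads (at least 2 conversions), not normalized, and the other column used, the deposited number of T bases of each interval. Intervals end past the annotated genes, so neighbours can share reads. The 3677 genes with no library at 0 T>C reads were tested. T>C counts were fitted with edgeR 4.0.16 (quasi-likelihood, 4 group means), with size factors by median of ratios from all S. cerevisiae reads, and all reads with S. pombe totals as offsets. The study took its factors from total read counts, by a calculation that its methods do not name. The labelled share, log2 of T>C over other reads with a pseudocount of 0.5 on each, and the A over B ratio of 63 pairs (log2, pseudocount 0.5, weights from counting error) were fitted with limma 3.58.1 in R 4.3.3. P-values were adjusted by Benjamini-Hochberg over all genes or all pairs, with a threshold of 0.05. Steps were tested on simulated counts. DESeq2 1.42.0, TMM, other scalings, filters, pseudocounts, a replicate block and leaving out each library were alternatives. Values per library are given for the 2 members with the largest changes each way per contrast past the threshold (mean of at least 20 T>C reads), those at the ends of the ranges of T>C reads per kilobase and of labelled share, the 3 pairs that changed most and the 3 most unequal, and members with known feedback. The members, lists and tests were chosen with earlier results of these data known. A further pair of paralogs enters the counts and medians but is not reported here.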

Additional observations from a re-analysis of the deposited data

How the results depend on the processing

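For T>C counts the scaling mattered most. The members with fewer T>C reads with IAA numbered 0 in the ET strain and 1 in the control strain with size factors, and with S. pombe reads 55 and 55, with the sum of S. cerevisiae reads 54 and 55, and with TMM 0 in the control strain. In the control strain DESeq2 and a filter at a mean of 1 T>C read gave 0 also, and in the ET strain a filter at 10 T>C reads gave 1. The members with more were 8 and 7, with S. pombe reads or the sum 0 and 0, and with TMM 40 and 35. With TMM the members lay 0.57 and 0.53 above the median of all genes in the ET and control strains, against 0.56 and 0.53 with size factors. Counts of members in this section stand without shares of all genes and show only how the calls moved. The median changes of 0.08 and 0.06 became -1.10 and -1.27 with S. pombe reads, -0.85 and -1.09 with the sum, and 0.46 and 0.44 with TMM. Between strains with IAA, the 1 member with more T>C reads became 0 with TMM and 38 with the sum. RPS14B became -0.43 (S. pombe reads) and -0.18 (the sum) in the ET strain and -0.50 and -0.32 in the control strain, RPS9A -0.58 and -0.33 in the ET strain, and RPS22B -0.71 and -0.54 in the control strain.

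With libraries left out, members with fewer T>C reads numbered 0 to 3 in the ET strain (3 without replicate B of the DMSO group) and 0 to 1 in the control strain, members with more 6 to 8 and 5 to 8, and the medians lay at 0.03 to 0.12 and 0.02 to 0.09. Between strains with IAA the count was 0 to 1. Members with fewer of all reads numbered 1 to 20 in the ET strain and 3 to 4 in the control strain, and those with a lower labelled share 39 to 54 and 51 to 55. Member pairs with a changed ratio were 3 to 4 in T>C reads and 9 to 12 in all reads. An exact test without adjustment gave 6 such pairs in T>C reads. Weights from counting error gave 28 and 17 members with a higher labelled share in the ET strain with IAA and with DMSO, against 0 and 0.

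Replicate letters did not pair the libraries throughout. Deviations of same-letter libraries correlated between -0.013 and 0.050 in T>C reads, and in all reads at 0.15, 0.62 and 0.14 in the ET strain (A, B and C) and at -0.30, -0.55 and -0.04 in the control strain. With the replicate letter as a block, 3 members had fewer T>C reads in the ET strain, 0 more in the ET strain with IAA, and 7 and 7 fewer of all reads, and RPS15 was not called between strains. Members with 16 T>C reads in a library carry a counting error that hides small changes.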
